A study of Mus musculus with 10 samples.

Results

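The DEAD box (Ddx) and DEAH box (Dhx) RNA helicases were taken from RNA-seq of mouse embryonic stem cells (ESC) as all genes whose symbol is Ddx or Dhx followed by a number, with Ddx3y left out. There were 52 such genes, 36 Ddx and 16 Dhx, of 19383 genes with a symbol. A measured feature spanned the 3′UTR that UCSC gives for a transcript and the next 2000 bases. Features with identical coordinates were summed to a site, which gave 117 helicase features of 43031 at 81 helicase sites of 28730. Of the 52 genes, 30 had 1 site, 15 had 2 and 7 had 3, numbered here from 5′ to 3′ along the gene. Values are TPM, transcripts per 1000000, which are per length and add up to the same total in each library.

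All cells were C57BL/6 ESC grown with LIF (leukemia inhibitory factor), on mitomycin C-treated mouse embryonic fibroblasts as feeders or on gelatin, and were not otherwise treated. WT ESC were compared with DIDO3ΔE16 ESC, which lack exon 16, the exon particular to the DIDO3 isoform of Dido1, after Cre recombination of a floxed allele driven by Sox2-Cre in mice. The other group was DIDO3ΔCT+HADIDO3, in which ESC with a C-terminal deletion that affects the same exon express HA-tagged DIDO3, and DIDO3ΔCT ESC without the tagged protein were not analysed here. Each group had 3 libraries. For WT the labels give 4 samples, of which replicates 2 and 3 carry 1 and the same library number and were taken as 1 library, WT replicate 2-3. The labels do not say whether libraries came from separate cultures or clones, so p-values measure the spread between these libraries, which may be technical.

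DEAD and DEAH box proteins use ATP to open short RNA duplexes or to remodel RNA-protein complexes. They are named for the amino acids of motif II of the helicase core, a box that binds the metal ion needed for ATP hydrolysis. DEAD box proteins act at every step from transcription to splicing, export, ribosome assembly, translation and decay. Several DEAH box proteins drive the ordered steps of the spliceosome. In ESC, which divide fast, ribosome assembly and splicing are heavily used.

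The box can be read in the coding sequence. The 30 bases around it are shown for some of the helicases described below, and other called genes are not shown. The 12 bases that encode the box are in capitals (GRCm38, the same build as mm10, coding strand, 5′ to 3′, from GENCODE M21 transcripts).
Dhx16 (DEAH, chr17:35885499-35885528, plus strand, exon 10): gtgatggtgGATGAAGCTCACgagcggacc
Dhx8 (DEAH, chr11:101752131-101752160, plus strand, exon 14): attatgttgGATGAAGCACACgagaggacc
Dhx40 (DEAH, chr11:86800978-86801007, minus strand, exon 4): attattttgGATGAAGCCCATgaaagaact
Dhx9 (DEIH, chr1:153468880-153468909, minus strand, exon 14): gttattgtgGATGAAATTCATgaaagagat
Ddx39a (DECD, chr8:83721101-83721130, plus strand, exon 5): tttgtgctaGATGAATGTGACaagatgctg
Ddx58 (DECH, chr4:40223876-40223905, minus strand, exon 8): atgatatttGATGAGTGTCATaacactagc
Ddx4 (DEAD, chr13:112612088-112612117, minus strand, exon 17): ttagttttgGATGAAGCTGATcgaatgttg
Ddx56 (DEAD, chr11:6266550-6266579, minus strand, exon 4): ctggtggtaGATGAAGCTGACcttcttttt
Ddx17 (DEAD, chr15:79538866-79538895, minus strand, exon 7): cttgtgttgGATGAGGCTGACcggatgctt

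The symbol did not fix the letters of the box. Of the 36 Ddx genes, 25 had DEAD, 3 had DEVD, 2 had DECD (Ddx39a and Ddx39b), 1 had DESD (Ddx52) and 1 had DECH (Ddx58). Of the 16 Dhx genes, 8 had DEAH, 4 had DEVH, 2 had DEIH (Dhx9 and Dhx36) and 1 had DECH (Dhx58). The search found no box in 4 Ddx genes (Ddx1, Ddx11, Ddx24 and Ddx60) and 1 Dhx gene (Dhx32), which says only that these letters were not met where they were looked for.

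Depth, as coverage times feature length, was 1.46 to 2.61 Gb per library, and counts of reads were not used. The library names in the labels start with C7A9 for WT replicates 1 and 4 and with C79M for the other 7 libraries. These starts were read here as 2 flow cell families, which the labels do not call them, so that comparisons with WT have 1 WT library in the family of the mutants, and the comparison between the mutants lies within 1 family. The deletion in DIDO3ΔE16 was seen at the 3′ end of DIDO3: the most distal Dido1 site had 16.1 ± 2.17 TPM in WT (SD over 3 libraries, as everywhere below), against 0.455 ± 0.129 in DIDO3ΔE16 and 11.5 ± 0.578 in DIDO3ΔCT+HADIDO3. The last value does not show the deletion in the name of that group, and whether it comes from the endogenous allele or the tagged DIDO3 is not known. All 10 ESC markers listed, Pou5f1, Nanog and Sox2 among them, were detected, with summed levels of 4878 to 6136 TPM in WT, against 6535 to 7020 in DIDO3ΔE16 and 5149 to 7061 in DIDO3ΔCT+HADIDO3. At an adjusted p under 0.05 (limma), 1 was higher and 2 lower than WT in DIDO3ΔE16, and 1 was higher and 3 lower in DIDO3ΔCT+HADIDO3, while Esrrb (390 ± 663 TPM) and Nanog (448 ± 385 TPM) varied within WT. The list of 10 fibroblast markers, for the feeder cells, summed to 63.6 to 69.9 TPM in WT, against 140 to 148 in DIDO3ΔE16 and 94.7 to 103 in DIDO3ΔCT+HADIDO3. In DIDO3ΔE16, 8 of its 8 tested markers were higher than in WT at an adjusted p under 0.05, and in DIDO3ΔCT+HADIDO3 2 of 6 (Thy1 and Pdgfrb) were higher and 4 of 6 lower, with Lum and Dcn at or near 0 in all groups. Col3a1 (0.815 TPM in WT) and Postn (1.88 TPM in WT) could not be tested there, since they were at 0 in libraries of DIDO3ΔCT+HADIDO3, in which Thy1 (54.4 TPM) and Pdgfrb (39.6 TPM) made up most of the sum. The list of 8 germ layer markers, with Pax6 at 0 and Afp near 0 in all groups, summed to 28.2 to 32.3 TPM in WT, against 46.1 to 48.9 in DIDO3ΔE16 and 23.3 to 25.8 in DIDO3ΔCT+HADIDO3. Of its 6 tested markers, 2 were higher (Sox1 and T) and 1 lower than WT in DIDO3ΔE16, and 1 was higher and 3 lower in DIDO3ΔCT+HADIDO3. The part of feeder or differentiating cells in the helicase results was not tested. In bulk RNA, fewer cells of a type and less RNA per cell cannot be told apart.

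Helicase transcripts were abundant in WT ESC. The leading site of a gene, its most abundant over all libraries, had a median of 70.9 TPM over the 36 Ddx genes and 58.9 TPM over the 16 Dhx genes, against 13.9 TPM over 16865 genes with a leading site above 0. At least 10 TPM were reached by 46 of the 52 genes, and at least 100 TPM by 16. The helicase sites together held 0.803% to 0.856% of all TPM in WT, against 0.764% to 0.844% in DIDO3ΔE16 and 0.695% to 0.768% in DIDO3ΔCT+HADIDO3.

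In order of the level of the leading site in WT, the first 5 Ddx genes were Ddx42, Ddx17, Ddx3x, Ddx21 and Ddx39b. Ddx42, a splicing helicase that binds the U2 snRNP, had 645 ± 22.1 TPM, and Ddx17, a cofactor of splicing and transcription, had 628 ± 6.98 TPM. Ddx3x, which aids translation initiation, had 523 ± 372 TPM, Ddx21, a nucleolar helicase, 494 ± 18.7 TPM, and Ddx39b, a splicing and export helicase, 420 ± 25.4 TPM. The WT libraries of Ddx42, Ddx17 and Ddx3x each overlapped with those of the next gene in the order, whereas every WT library of Ddx21 was above every one of Ddx39b. With all sites of a gene summed, the order was Ddx17 (1218 TPM), Ddx39b (790.7), Ddx42 (645.1), Ddx5 (582.6) and Ddx3x (522.8). Ddx21 then came after these, at 493.5 TPM. Ddx17, Ddx39b and Ddx5 each have sites that share bases.

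By leading site, the most abundant Dhx genes stood lower than these Ddx genes. Dhx33, which acts in rRNA synthesis and translation, had 223 ± 8.98 TPM, Dhx32 had 199 ± 89.9 TPM, and Dhx9, which unwinds RNA-DNA hybrids, had 136 ± 9.30 TPM. Dhx15, the helicase that takes the spliceosome apart, had 117 ± 5.69 TPM and Dhx36, a G-quadruplex helicase, 108 ± 6.998 TPM. The WT libraries of Dhx15 and Dhx36 overlapped, and those of Dhx33 and Dhx32 each spanned values of the gene next in the order of all 52 genes. With all sites of a gene summed, the order turned: Dhx9 (292.1 TPM) and Dhx15 (291.8 TPM) stood above Dhx33 (242.2 TPM) and Dhx32 (199.4 TPM).

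At the low end, 5 genes were under 5 TPM in WT. They were Ddx25 (2.79 ± 0.630 TPM) and Ddx43 (2.28 ± 0.527 TPM), which are known from germ cells, and Dhx58 (1.87 ± 0.377 TPM) and Ddx60, which are known from antiviral responses, together with Dhx30. Ddx60 had 0 TPM at 1 site and at most 0.103 TPM in any library at the other. Dhx30, a helicase of mitochondrial ribosomes, was listed at 0 in all 9 libraries, and so was Snrnp200, a core spliceosomal helicase outside the 52 genes, so these values may be failed estimates rather than levels. Ddx60, Dhx30 and 1 of 2 Ddx19b sites could not be tested, which left 77 helicase sites in each comparison.

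**Figure D1:**
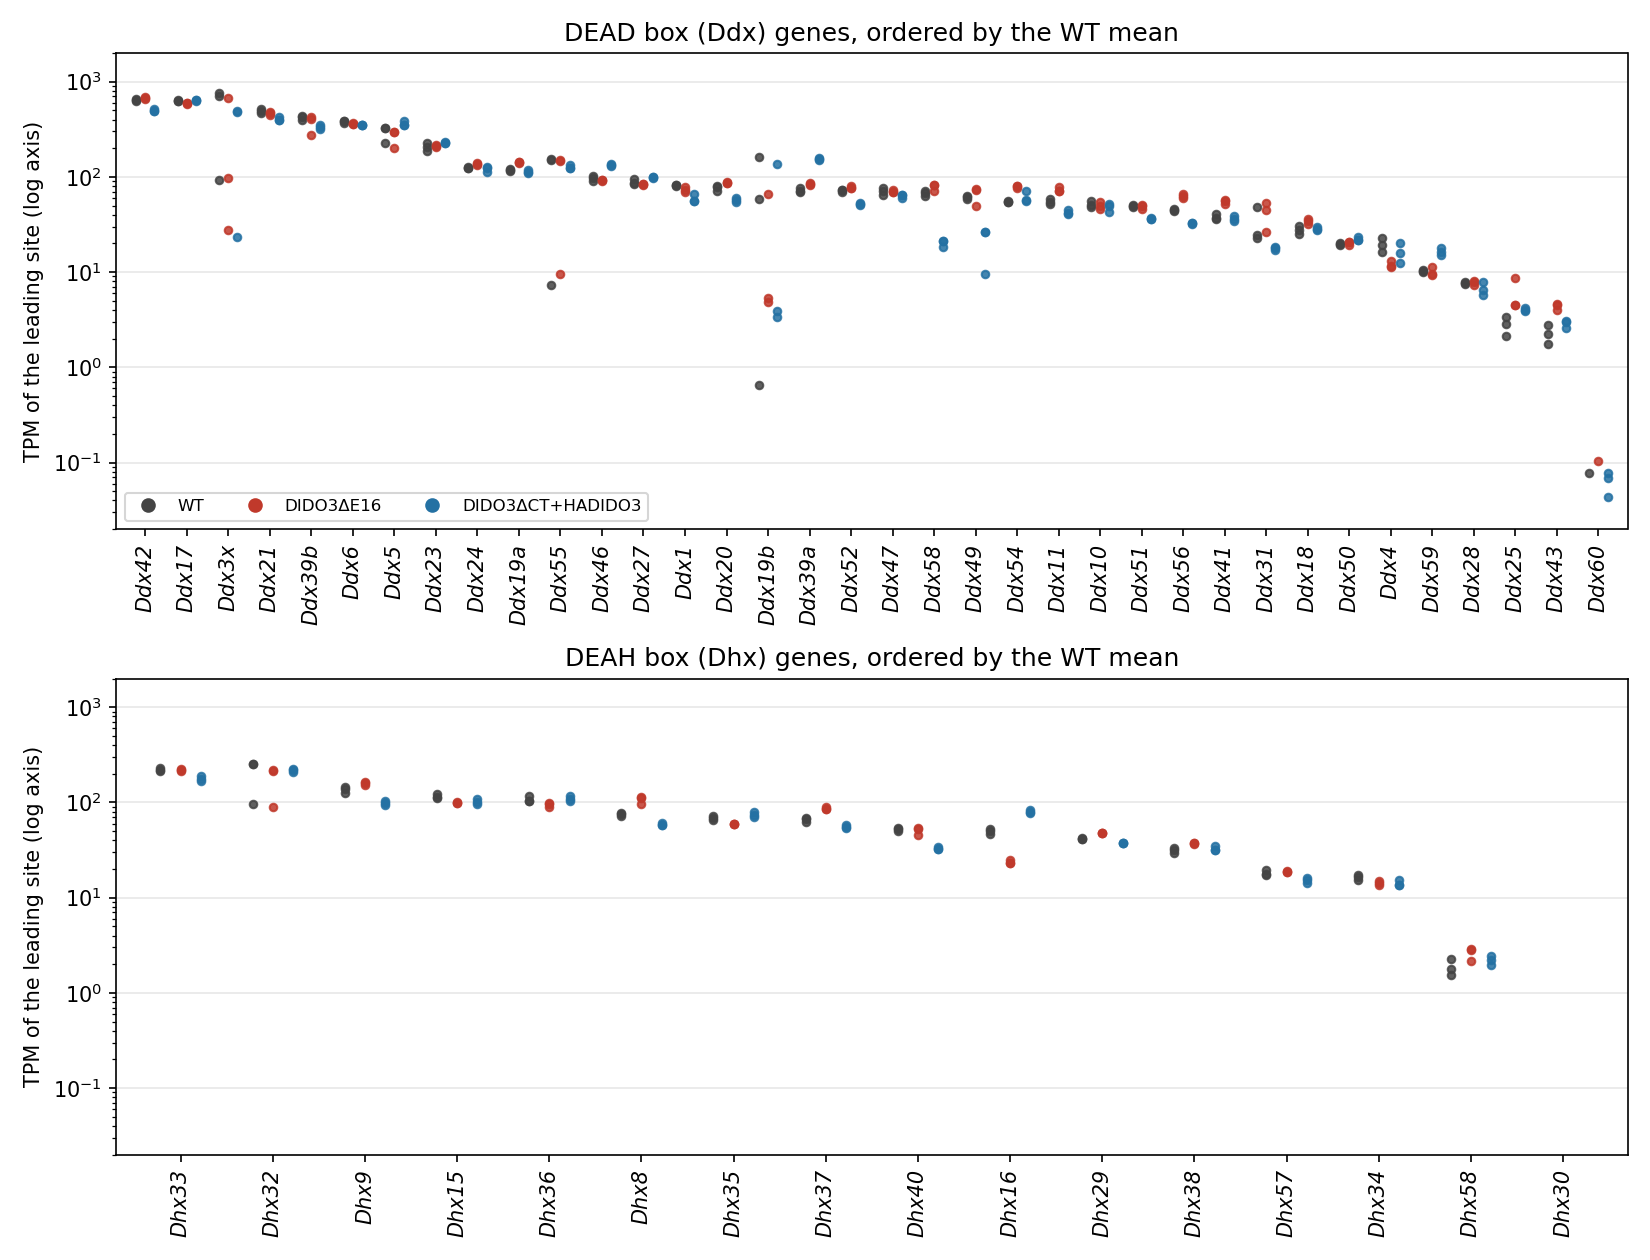
TPM (log axis) of the leading site of each helicase gene in every library of WT, DIDO3ΔE16 and DIDO3ΔCT+HADIDO3, in order of the WT mean, with values under 0.02 TPM not drawn. Levels run from 645 TPM for Ddx42 to under 1 TPM for Ddx60, and the 3 libraries of a group lie close together for most genes but far apart for Ddx3x, Ddx55 and Ddx19b.

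Differences between groups were tested with limma on log2(TPM + 0.1) over all sites above 0 in every library compared, with Benjamini-Hochberg adjustment over all of them. A site counted as altered where its log2 fold change was 0.7 or more in size with an adjusted p under 0.05. In DIDO3ΔE16, 4 of 77 helicase sites (5.19%) were altered relative to WT, beside 15.1% of all sites and 8.86% of all sites with a mean of at least 10 TPM, and 2 of them were higher (10.2% of all sites were) and 2 lower (4.94%). In DIDO3ΔCT+HADIDO3, 7 of 77 (9.09%) were altered relative to WT, beside 17.3% of all sites and 11.6% of those with at least 10 TPM, and 2 were higher (10.1%) and 5 lower (7.24%). Between the mutants, 13 of 77 (16.9%) were altered, beside 27.4% and 19.5%: 10 were higher in DIDO3ΔE16 (13.9% of all sites were) and 3 lower (13.4%). The share called among the helicases was below that of all sites in each comparison and nearer to that of sites with at least 10 TPM, without a test of either difference. The comparisons with WT share the WT libraries. Over the 3 comparisons Dhx16, Ddx39a, Ddx58, Ddx49 and Ddx24 had a called site in more than 1 of them. Effects of opposite sign in the mutants, both at an adjusted p under 0.05 relative to WT, with a called difference between the mutants, were seen at 5 of 77 helicase sites (6.49%), beside 6.48% of all sites tested in all 3 comparisons.

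Smaller differences were frequent and mostly went one way in DIDO3ΔCT+HADIDO3. At an adjusted p under 0.05 and any fold, 32 of 77 helicase sites were lower than in WT (41.6%, beside 20.0% of all sites and 27.2% of those with at least 10 TPM) and 6 were higher (7.79%, beside 18.5% and 17.4%). The median log2 fold change was -0.25 over the helicase sites and -0.01 over all sites. In DIDO3ΔE16, 13 were lower (16.9%, beside 17.4% and 25.4%) and 11 higher (14.3%, beside 15.9% and 12.7%), with medians of -0.02 and -0.01. This balance turned with the scaling, to 7 lower and 14 higher with no scaling of the libraries and 6 lower and 18 higher with quantile normalization. Between the mutants, 32 were higher in DIDO3ΔE16 (41.6%, beside 24.4% and 25.2%) and 9 lower (11.7%, beside 24.8% and 28.8%), with medians of 0.19 and 0.01. With no scaling of the libraries, 24 helicase sites were lower in DIDO3ΔCT+HADIDO3 than in WT, and with the flow cell family as a covariate 21. The difference in the share called between the helicases and the other sites was not tested.

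The Ddx and the Dhx genes were set side by side. In DIDO3ΔCT+HADIDO3, 17 of 52 Ddx sites (32.7%) and 15 of 25 Dhx sites (60%) were lower than in WT at an adjusted p under 0.05 and any fold, with median log2 fold changes of -0.20 and -0.31, beside 20.0% of all sites, and 4 and 2 were higher, beside 18.5%. In DIDO3ΔE16, 8 of 52 Ddx sites (15.4%) and 5 of 25 Dhx sites (20.0%) were lower than in WT, beside 17.4%, and 7 and 4 were higher, beside 15.9%, with medians of -0.04 and 0.02. Between the mutants, 21 of 52 Ddx sites and 11 of 25 Dhx sites were higher in DIDO3ΔE16, beside 24.4%, and 6 and 3 were lower, beside 24.8%, with medians of 0.19 and 0.20. Sites of 1 gene are not independent, since 15 Dhx sites that were lower belong to fewer genes: by leading site, 9 of 15 Dhx genes and 13 of 35 Ddx genes were lower in DIDO3ΔCT+HADIDO3, beside 23.4% of the leading sites of all genes, and 1 and 3 were higher, beside 19.3%. In DIDO3ΔE16, 4 of 15 Dhx genes and 5 of 35 Ddx genes were lower, beside 19.1%, and 4 and 6 were higher, beside 18.4%. Whether the 2 classes differ was not tested.

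**Figure D2:**
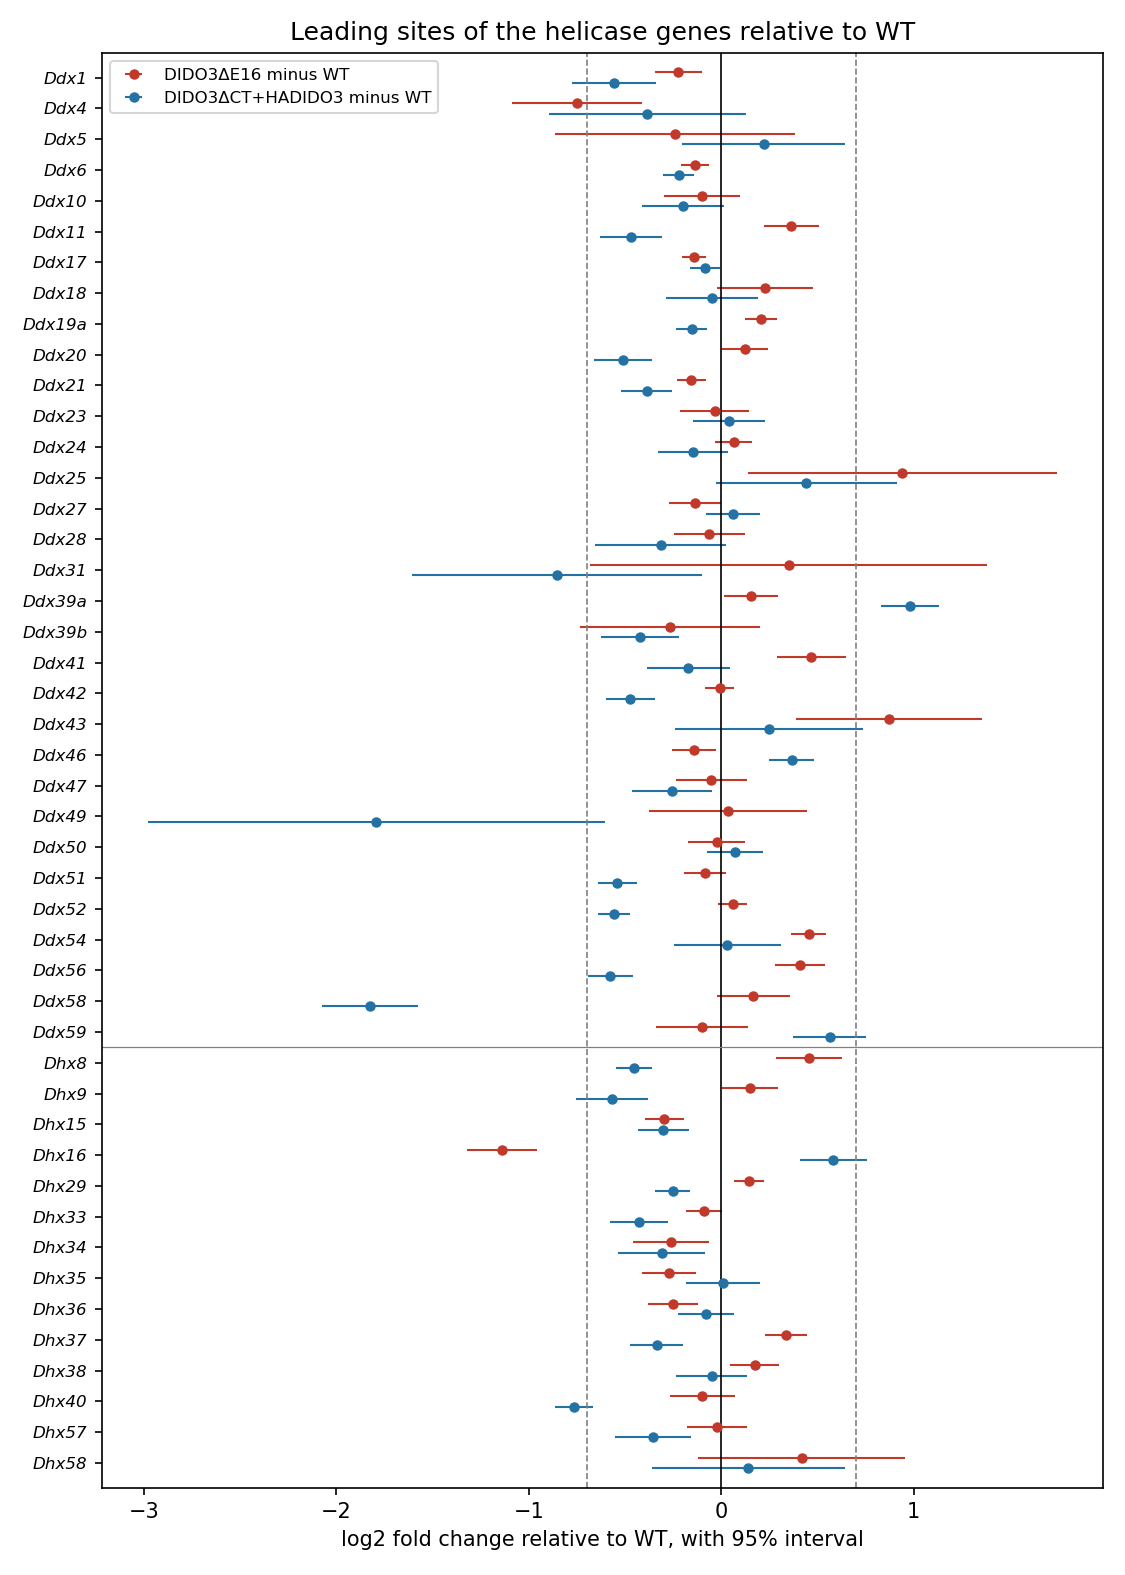
Log2 fold change relative to WT of the leading site of 46 helicase genes in DIDO3ΔE16 and DIDO3ΔCT+HADIDO3. Bars give the 95% interval and dashed lines the 0.7 threshold. Ddx3x, Ddx19b, Ddx55 and Dhx32, with a standard error of 0.5 or more, are left out. Most points lie inside the dashed lines, with Dhx16 at -1.14 in DIDO3ΔE16 and Ddx58 at -1.82 in DIDO3ΔCT+HADIDO3 as the outermost on the lower side relative to WT.

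Among the DEAH helicases of the spliceosome, Dhx16 and Dhx8 differed in opposite directions in the mutants. Dhx16, which works before the first splicing step, had a site at chr17:35892548-35894668 with 47.1, 50.6 and 52.3 TPM in WT replicates 1, 2-3 and 4, 24.9, 23.03 and 22.95 TPM in DIDO3ΔE16, and 79.6, 84.1 and 77.4 TPM in DIDO3ΔCT+HADIDO3. The 3 groups did not overlap, with DIDO3ΔE16 lowest and DIDO3ΔCT+HADIDO3 highest. Relative to WT the log2 fold change was -1.14 (SE 0.07, adjusted p = 0.000559, limma) in DIDO3ΔE16 and 0.58 (SE 0.07, adjusted p = 0.00259) in DIDO3ΔCT+HADIDO3, the latter under the fold threshold. Between the mutants Dhx16 was 3.35-fold lower in DIDO3ΔE16 (log2 fold change -1.74, adjusted p = 4.83e-05). The site shares 305 bases with one of 2310061I04Rik on the other strand, whose level varied within groups (187 ± 79.8 TPM in WT and 175 ± 173 in DIDO3ΔE16), and the counting named no strand option although the sequencing is described as stranded, so whether reads of the 2 genes were told apart there is not known.

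Dhx8, which releases the spliced mRNA, had 75.2, 76.9 and 71.8 TPM in WT, 96.2, 111 and 114 TPM in DIDO3ΔE16, and 57.2, 57.4 and 60.8 TPM in DIDO3ΔCT+HADIDO3. Here DIDO3ΔE16 was the highest group and DIDO3ΔCT+HADIDO3 the lowest, again without overlap. The log2 fold change was 0.46 (SE 0.07, adjusted p = 0.00644, limma) in DIDO3ΔE16 and -0.45 (SE 0.04, adjusted p = 0.000897) in DIDO3ΔCT+HADIDO3, and 0.89 (SE 0.07, adjusted p = 0.000343) between the mutants. Its site shares 1610 bases with an Etv4 site on the other strand, which varied in WT (150 ± 122 TPM) and had 236 ± 14.1 and 249 ± 16.8 TPM in the mutants.

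At their leading sites the other 3 spliceosomal DEAH helicases had smaller log2 fold changes relative to WT. Dhx15 fell in both mutants at its most abundant site, with a log2 fold change of -0.30 in each (adjusted p = 0.00456 in DIDO3ΔE16 and 0.00913 in DIDO3ΔCT+HADIDO3, limma). Dhx38, the helicase of the second splicing step, rose by 0.17 on the log2 scale in DIDO3ΔE16 (adjusted p = 0.0499) and had -0.05 (adjusted p = 0.622) in DIDO3ΔCT+HADIDO3. Dhx35, found in the spliceosome, fell by 0.27 in DIDO3ΔE16 at site 2 (adjusted p = 0.0167), where it had 68.5 ± 3.32 TPM in WT. Its rare site 1 had 0.784, 0.687 and 0.836 TPM in WT and 1.29, 2.21 and 1.95 TPM in DIDO3ΔCT+HADIDO3. It was called higher there (log2 fold change 1.02, adjusted p = 0.0222). The call was lost without WT replicate 1 or 2-3 or DIDO3ΔCT+HADIDO3 replicate 2 or 3. It was also lost on log2(TPM + 1), and with TPM summed over the gene, at 0.05 (adjusted p = 0.615, limma). Over the list of 5, 2 leading sites were higher and 3 lower in DIDO3ΔE16 (18.4% and 19.1% of all leading sites were), and 1 was higher and 2 lower in DIDO3ΔCT+HADIDO3 (19.3% and 23.4%), at an adjusted p under 0.05 and any fold, with medians of -0.27 and -0.05.

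Dhx9, which resolves R-loops (RNA-DNA hybrids with a displaced DNA strand), was measured at 3 sites that share no base, and all moved together. Site 2 (chr1:153462340-153464341) had 139, 145 and 126 TPM in WT, 159, 162 and 152 TPM in DIDO3ΔE16, and 103, 99.5 and 93.2 TPM in DIDO3ΔCT+HADIDO3. Every DIDO3ΔCT+HADIDO3 library was below every WT library, and every DIDO3ΔE16 library above, at this site. In DIDO3ΔCT+HADIDO3 the 3 sites fell by 0.50, 0.57 and 0.55 on the log2 scale (adjusted p = 0.0108, 0.00353 and 0.00293, limma), whereas in DIDO3ΔE16 the log2 fold changes of 0.14, 0.15 and 0.17 did not pass (adjusted p = 0.283, 0.109 and 0.0991). Between the mutants they were 0.62, 0.70 and 0.70 higher in DIDO3ΔE16, of which only the third, at 0.701, reached the fold threshold of 0.7. The call of site 3 was lost without DIDO3ΔE16 replicates 1 or 3 or DIDO3ΔCT+HADIDO3 replicates 1 or 2. It was also lost on log2(TPM + 1), with no scaling, with features as deposited and with TPM summed over the gene. The value of site 3 ranged from 0.65 to 0.73 over all alternatives. Site 3 held a stable share of the TPM of Dhx9 in all groups (30%, 30.3% and 29.9%), and it shares 817 bases with a Shcbp1l site on the other strand that had 1.36 to 2.26 TPM.

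Of the 9 helicases linked to R-loops, 5 were lower than WT and none higher in DIDO3ΔCT+HADIDO3 at an adjusted p under 0.05 and any fold (23.4% and 19.3% of the leading sites of all genes were), with a median log2 fold change of -0.17 beside -0.05 over the leading sites of all genes. In DIDO3ΔE16 2 were higher and 2 lower (median -0.03, beside 18.4% and 19.1% of leading sites), and between the mutants 6 were higher in DIDO3ΔE16 and none lower (median 0.26, beside 27.8% and 25%). Here and in the lists below, the examples outside the rule for named genes were chosen after their values were seen. Ddx1, which acts on RNA-DNA hybrids at DNA breaks and in tRNA ligation, fell by 0.22 in DIDO3ΔE16 (adjusted p = 0.0205, limma) and by 0.56 in DIDO3ΔCT+HADIDO3 (adjusted p = 0.00603). Ddx41, a splicing helicase also linked to DNA sensing, rose by 0.47 in DIDO3ΔE16 (adjusted p = 0.00629) and had -0.17 (adjusted p = 0.177) in DIDO3ΔCT+HADIDO3. Ddx19a, an mRNA export helicase, rose by 0.21 in DIDO3ΔE16 (adjusted p = 0.00811) and fell by 0.15 in DIDO3ΔCT+HADIDO3 (adjusted p = 0.0167). Ddx21 fell in both, by 0.15 (adjusted p = 0.0149) and 0.39 (adjusted p = 0.00406). With the flow cell family as a covariate, Ddx1 (-0.22), Ddx41 (0.37), Ddx19a (0.17) and Ddx21 (-0.16) did not pass in DIDO3ΔE16. Nor did Ddx1 (-0.56) and Ddx19a (-0.19) in DIDO3ΔCT+HADIDO3, where Ddx21 was at -0.40.

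**Figure D3:**
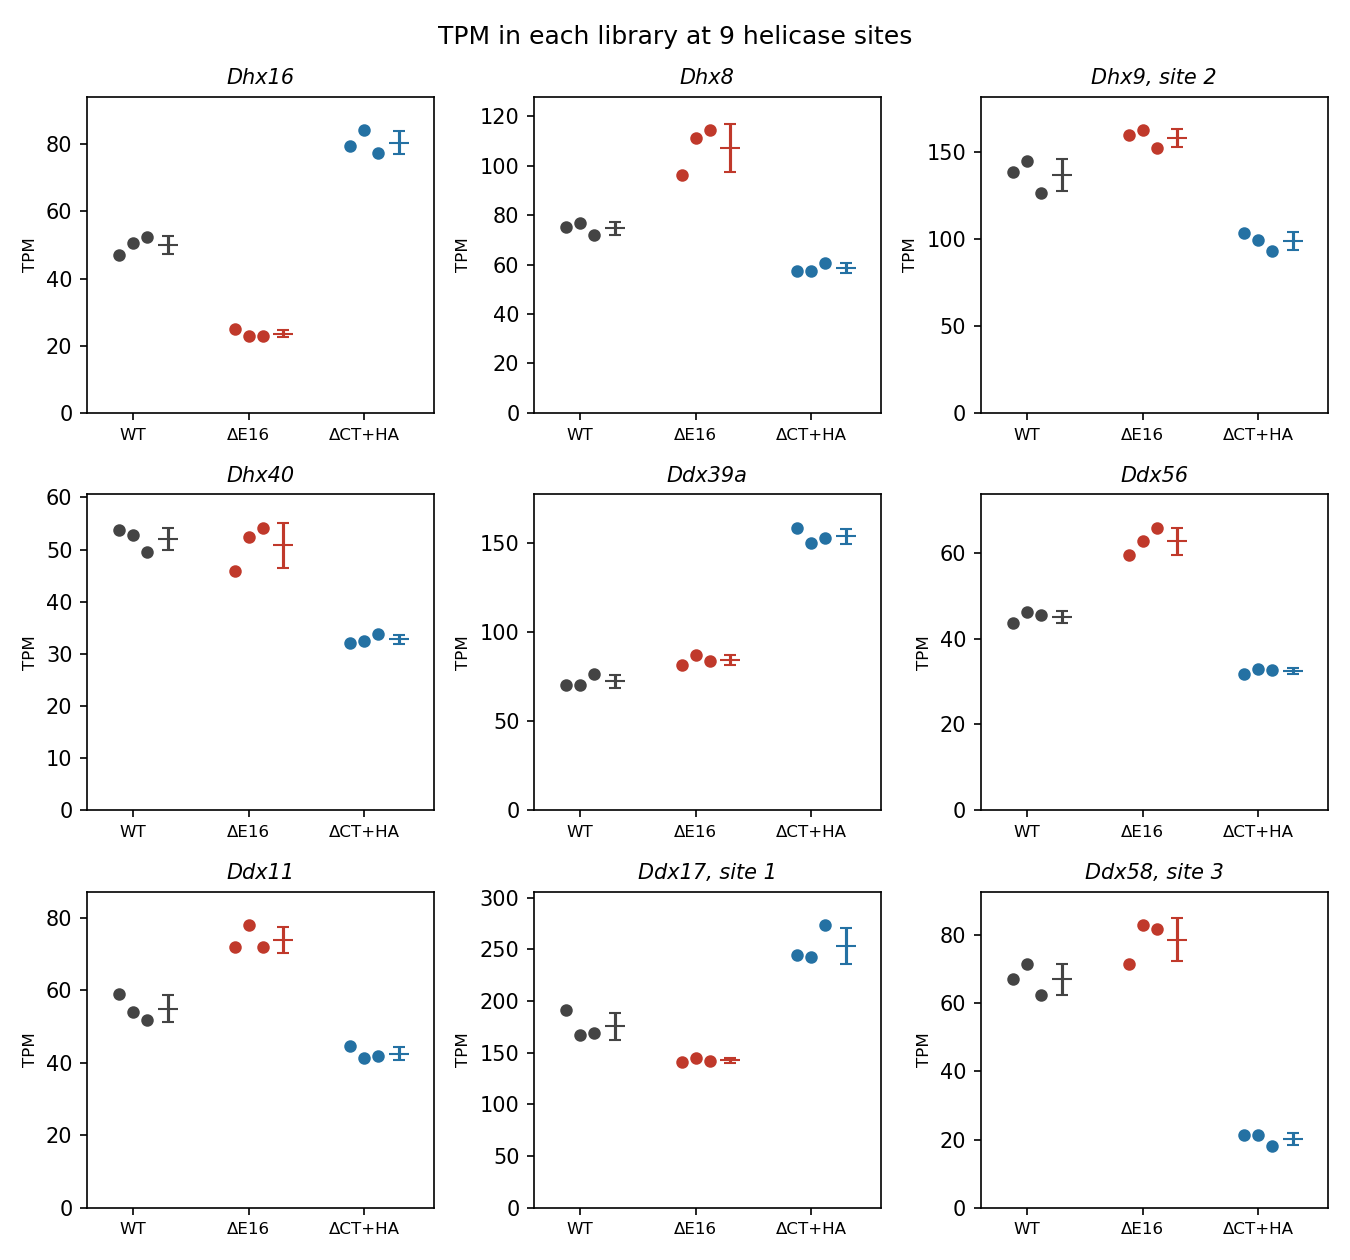
TPM (linear axis from 0) in each library for 9 helicase sites in WT, DIDO3ΔE16 (ΔE16) and DIDO3ΔCT+HADIDO3 (ΔCT+HA), as points, with the mean and SD of the 3 libraries of a group as bars. Dhx16 is lowest in DIDO3ΔE16 (23.6 ± 1.11 TPM), Ddx39a is highest in DIDO3ΔCT+HADIDO3 (154 ± 4.35 TPM) and Ddx58 is lowest in DIDO3ΔCT+HADIDO3 (20.2 ± 1.81 TPM at site 3), each without overlap with the other groups.

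Ddx39a and Ddx39b, closely related helicases with the DECD box that load export factors on mRNA, differed in direction in DIDO3ΔCT+HADIDO3. Ddx39a (chr8:83723142-83725351) had 70.2, 70.4 and 76.5 TPM in WT, 81.5, 87.2 and 83.9 TPM in DIDO3ΔE16, and 158, 150 and 152 TPM in DIDO3ΔCT+HADIDO3. Its level in DIDO3ΔCT+HADIDO3 was thus above that of every other library, 1.97-fold higher than in WT (log2 fold change 0.98, SE 0.06, adjusted p = 0.000399, limma), and it was 0.85 lower in DIDO3ΔE16 than there on the log2 scale (adjusted p = 0.00011). In DIDO3ΔE16 the log2 fold change relative to WT was 0.15 (adjusted p = 0.0918). Ddx39b fell in DIDO3ΔCT+HADIDO3 by 0.24 at site 1 (adjusted p = 0.018) and by 0.42 at site 2 (adjusted p = 0.0117). With the flow cell family as a covariate, these Ddx39b sites were at -0.25 and -0.46 there and did not pass. The Ddx39a site shares 731 bases with an Adgre5 site on the other strand that was at 515 ± 22.6 TPM in WT and 483 ± 12.5 TPM in DIDO3ΔCT+HADIDO3.

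Over the 5 export helicases, 1 was higher and 2 were lower than WT in DIDO3ΔCT+HADIDO3 (19.3% and 23.4% of all leading sites were), and 1 was higher and none lower in DIDO3ΔE16 (18.4% and 19.1%). Nup214, the nuclear pore protein that binds Ddx19 at the end of export, is not a helicase and was called lower in DIDO3ΔCT+HADIDO3 (21.5 ± 0.919 TPM in WT, against 25.4 ± 2.36 in DIDO3ΔE16 and 13.6 ± 0.448 in DIDO3ΔCT+HADIDO3, log2 fold change -0.76, adjusted p = 0.000777, limma). By leading site, it was the 1 called gene of 17 listed helicase cofactors in that comparison, in which 7.24% of all sites were called lower. At an adjusted p under 0.05 and any fold, 8 cofactors were lower and 1 higher there, beside 23.4% and 19.3% of all leading sites. In DIDO3ΔE16 the leading site of no cofactor was called altered, with 1 higher and 1 lower at that adjusted p, beside 18.4% and 19.1%.

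Of the leading sites of the 7 DEAD helicases of splicing, 1 was higher and 1 lower than WT in DIDO3ΔE16 (18.4% and 19.1% of all leading sites were), and 1 was higher and 2 were lower in DIDO3ΔCT+HADIDO3 (19.3% and 23.4%), with medians of -0.14 and -0.08. Ddx42 was at 645 ± 22.1 TPM in WT, against 670 ± 13.7 in DIDO3ΔE16 and 499.6 ± 17.9 in DIDO3ΔCT+HADIDO3, where it fell by 0.47 (SE 0.05, adjusted p = 0.00181, limma). Its site overlaps one of Ftsj3 on the other strand, which fell by 0.21 there. Ddx46, which opens the branch point for the U2 snRNP, rose by 0.37 in DIDO3ΔCT+HADIDO3 (96.8 ± 6.34 TPM in WT and 134 ± 3.47 there, adjusted p = 0.00333) and had -0.14 (adjusted p = 0.0672) in DIDO3ΔE16.

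Ddx17 was called altered between the mutants at the upstream one of its 3 ends. Its sites overlap on the same strand, site 1 with site 2 (chr15:79529490-79533163) and site 2 with site 3, so reads in the shared bases cannot be told apart. Site 1 (chr15:79532661-79535942) had 191, 167 and 169 TPM in WT, 141, 145 and 142 TPM in DIDO3ΔE16, and 244, 242 and 273 TPM in DIDO3ΔCT+HADIDO3. No library overlapped between the groups, and the order was that of Dhx16. The log2 fold change was -0.36 (SE 0.05, adjusted p = 0.00506, limma) in DIDO3ΔE16, 0.42 (SE 0.06, adjusted p = 0.0053) in DIDO3ΔCT+HADIDO3 and -0.81 (SE 0.04, adjusted p = 0.000124) between the mutants. At the most distal site 3, the most abundant, the same comparisons gave -0.14 (adjusted p = 0.0105), -0.08 (adjusted p = 0.0931) and -0.08 (adjusted p = 0.0586). Site 1 held 14.4% ± 1.03 (SD, n = 3) of the TPM of Ddx17 in WT, against 12.5% ± 0.128 in DIDO3ΔE16 and 19.2% ± 1.08 in DIDO3ΔCT+HADIDO3, and with all sites of Ddx17 summed the difference between the mutants was -0.23.

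Of the 15 helicases of ribosome biogenesis, 7 were lower than WT and none higher in DIDO3ΔCT+HADIDO3 at an adjusted p under 0.05 and any fold, beside 23.4% and 19.3% of the leading sites of all genes. In DIDO3ΔE16 3 were higher and 1 lower, beside 18.4% and 19.1%. Between the mutants, 11 were higher in DIDO3ΔE16 and 1 was lower, beside 27.8% and 25%. The medians of the list were 0.04, -0.34 and 0.32 in the 3 comparisons, beside 0.00, -0.05 and 0.05 over the leading sites of all genes.

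Ddx56, a helicase of the large ribosomal subunit, had 43.6, 46.3 and 45.4 TPM in WT, 59.5, 62.7 and 65.8 TPM in DIDO3ΔE16, and 31.6, 33.0 and 32.7 TPM in DIDO3ΔCT+HADIDO3. The groups did not overlap. It rose by 0.41 (SE 0.05, adjusted p = 0.00371, limma) in DIDO3ΔE16 and fell by 0.58 (SE 0.05, adjusted p = 0.000814) in DIDO3ΔCT+HADIDO3, and the difference between the mutants was 0.97 (SE 0.04, adjusted p = 7.98e-05). Dhx37, which frees the U3 snoRNA during assembly of the small subunit, had the same signs, with 0.34 (adjusted p = 0.00373), -0.34 (adjusted p = 0.00735) and 0.65 (adjusted p = 0.000315).

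Ddx52, of the small subunit, and Ddx51, of the large subunit, fell in DIDO3ΔCT+HADIDO3 by 0.56 (adjusted p = 0.00035, limma) and 0.54 (adjusted p = 0.000667), and had 0.06 (adjusted p = 0.2) and -0.08 (adjusted p = 0.208) in DIDO3ΔE16. Dhx33 fell by 0.43 at site 2 in DIDO3ΔCT+HADIDO3 (adjusted p = 0.00431). Ddx54 rose by 0.45 in DIDO3ΔE16 (adjusted p = 0.000958) and had 0.03 (adjusted p = 0.849) in DIDO3ΔCT+HADIDO3. Ddx27 was the exception between the mutants, 0.22 lower in DIDO3ΔE16 (adjusted p = 0.00176).

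Ddx49, also a ribosome biogenesis helicase, had the lowest log2 fold change of the list in DIDO3ΔCT+HADIDO3. Site 2 (chr8:70290866-70293507) had 60.9, 62.7 and 57.9 TPM in WT, 49.8, 74.1 and 73.6 TPM in DIDO3ΔE16, and 26.1, 26.2 and 9.47 TPM in DIDO3ΔCT+HADIDO3. The DIDO3ΔCT+HADIDO3 libraries were below all others, and replicate 3 was far below its group. The log2 fold change was -1.79 (SE 0.46, adjusted p = 0.0347, limma) in DIDO3ΔCT+HADIDO3, and 1.81 (SE 0.48, adjusted p = 0.032) between the mutants. The first call was lost without any 1 of the 3 WT libraries or of DIDO3ΔCT+HADIDO3 replicates 1 and 2, and the second without any 1 of the DIDO3ΔE16 libraries. The site overlaps one of Homer3 on the other strand, which itself had -0.58 in DIDO3ΔCT+HADIDO3 (adjusted p = 0.0118).

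Ddx31 and Ddx24 were called as well. Ddx31, a nucleolar helicase, had 48.0, 24.3 and 23.1 TPM in WT, 26.6, 45.2 and 53.1 TPM in DIDO3ΔE16, and 18.1, 18.05 and 17.1 TPM in DIDO3ΔCT+HADIDO3. The mutants did not overlap (log2 fold change 1.18, SE 0.26, adjusted p = 0.0155, limma), whereas WT overlapped with DIDO3ΔE16, and the call was lost without DIDO3ΔE16 replicate 2 or DIDO3ΔCT+HADIDO3 replicates 2 or 3. Its site overlaps one of Barhl1 on the other strand, at 0.469 to 1.85 TPM.

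Ddx24, which acts in the large subunit, was altered at its most distal and rarest end, where 7.13, 7.31 and 7.89 TPM in DIDO3ΔE16 stood against 3.67, 2.93 and 3.81 TPM in WT and 2.901, 3.52 and 2.86 TPM in DIDO3ΔCT+HADIDO3. DIDO3ΔE16 was above both other groups without overlap, with log2 fold changes of 1.02 (SE 0.13, adjusted p = 0.00378, limma) from WT and 1.26 (SE 0.12, adjusted p = 0.000697) from DIDO3ΔCT+HADIDO3. The more abundant sites 1 and 2 had -0.02 and 0.07 in DIDO3ΔE16, and the share of site 3 was 1.88% in WT, against 3.69% in DIDO3ΔE16 and 1.69% in DIDO3ΔCT+HADIDO3. All 2236 bases of site 3 (chr12:103405976-103408211) lie on a site of Otub2 on the other strand, which had 29.4 ± 1.57 TPM in WT and 32.9 ± 5.01 TPM in DIDO3ΔE16 (log2 fold change 0.09, adjusted p = 0.603). Site 3 also shares bases with Ddx24 site 2 on its own strand, and with TPM summed over the gene both calls were lost, at 0.05 (adjusted p = 0.3, limma) from WT and 0.12 from DIDO3ΔCT+HADIDO3.

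**Figure D4:**
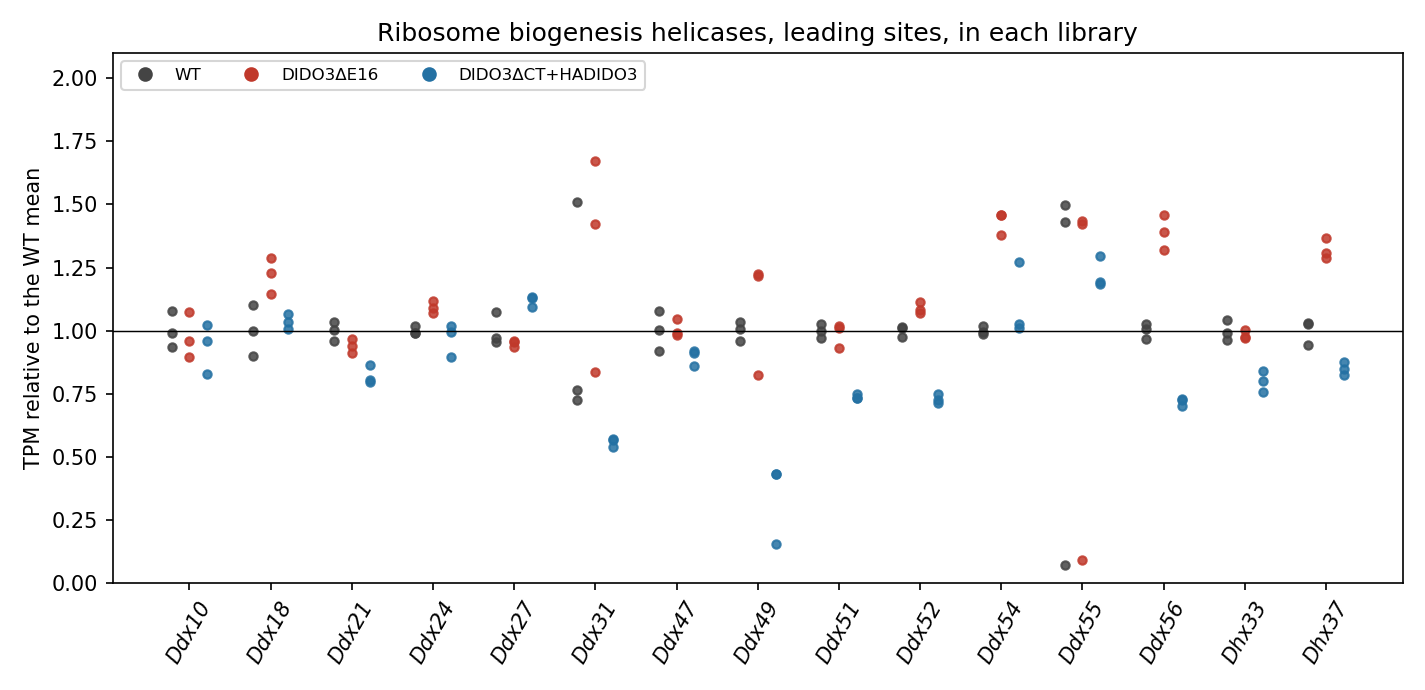
TPM of the leading sites of the 15 ribosome biogenesis helicases relative to the WT mean of each (linear axis from 0, WT mean at 1), for every library of the 3 groups. Most DIDO3ΔCT+HADIDO3 points lie under 1, with Ddx49 lowest, and the DIDO3ΔE16 points of Ddx54, Ddx56 and Dhx37 lie above 1.

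Ddx58, which encodes the antiviral RNA sensor RIG-I, fell in DIDO3ΔCT+HADIDO3 at all of its 3 sites, which share no base. Site 3 (chr4:40201777-40205809), which held 89.9% of its TPM in WT, had 67.1, 71.4 and 62.3 TPM in WT, 71.5, 82.8 and 81.6 TPM in DIDO3ΔE16, and 21.4, 21.2 and 18.2 TPM in DIDO3ΔCT+HADIDO3. DIDO3ΔCT+HADIDO3 was below all other libraries, 3.54-fold lower than WT (SE 0.10 on the log2 scale, adjusted p = 0.000285, limma), and every DIDO3ΔE16 library was above every WT library, without a call (log2 fold change 0.17, adjusted p = 0.149). Sites 1 and 2, at 4.03 ± 0.451 and 3.49 ± 0.0465 TPM in WT, fell by 1.41 (adjusted p = 0.00353) and 1.46 (adjusted p = 0.00505) in DIDO3ΔCT+HADIDO3. Between the mutants the 3 sites were 1.15, 1.11 and 1.97 higher in DIDO3ΔE16 on the log2 scale, and the call of site 2 (adjusted p = 0.0272) was lost without DIDO3ΔE16 replicates 2 or 3 or DIDO3ΔCT+HADIDO3 replicates 2 or 3. Its relative Dhx58 was low in all groups, at 1.87 ± 0.377, 2.63 ± 0.415 and 2.20 ± 0.234 TPM at site 1, and did not pass the test in any comparison.

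Among the germline helicases, Ddx4 and Ddx43 differed in opposite directions in DIDO3ΔE16. Ddx4, the germ cell helicase also called Vasa, had 22.9, 19.3 and 16.1 TPM in WT, 11.3, 11.5 and 13.0 TPM in DIDO3ΔE16, and 12.4, 15.9 and 20.0 TPM in DIDO3ΔCT+HADIDO3. It fell in DIDO3ΔE16 (log2 fold change -0.75, SE 0.13, adjusted p = 0.0113, limma), and the call was lost without WT replicate 1 and, at -0.69, with no scaling of the libraries. Ddx43 had 2.26, 2.81 and 1.76 TPM in WT, 3.99, 4.64 and 4.50 TPM in DIDO3ΔE16, and 2.6, 2.96 and 3.1 TPM in DIDO3ΔCT+HADIDO3. It rose in DIDO3ΔE16 (0.87, SE 0.19, adjusted p = 0.0213), and the call was lost without WT replicate 1 or any 1 of the DIDO3ΔE16 libraries, and under the fold threshold with a pseudocount of 1 (0.68) or quantile normalization (0.66).

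Ddx25, of developing sperm, had 3.38, 2.13 and 2.87 TPM in WT and 4.54, 8.57 and 4.52 TPM in DIDO3ΔE16, without overlap and without a call (0.94, SE 0.32, adjusted p = 0.0768, limma). None of the 3 germline helicases passed in DIDO3ΔCT+HADIDO3, but with the flow cell family as a covariate Ddx25 was called higher there (0.79, adjusted p = 0.0336). The list of 6 germ cell markers, which holds Ddx4, summed to 52.2 to 64.2 TPM in WT, against 68.3 to 77.3 in DIDO3ΔE16 and 78.5 to 102 in DIDO3ΔCT+HADIDO3, with Sycp3 at 0 throughout. Of its 5 tested markers, 1 was higher (Dazl) and 1 lower (Ddx4) than WT in DIDO3ΔE16 at an adjusted p under 0.05 (18.4% and 19.1% of all leading sites were). In DIDO3ΔCT+HADIDO3, 3 were higher and none lower (19.3% and 23.4%). The part of this list in the helicase values was not tested.

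Of the cytoplasmic helicases, Ddx6, which represses translation and promotes decapping, fell by 0.14 in DIDO3ΔE16 (adjusted p = 0.0199, limma) and by 0.22 in DIDO3ΔCT+HADIDO3 (adjusted p = 0.00496) at its main site. Dhx36 fell by 0.25 in DIDO3ΔE16 (adjusted p = 0.0179) and had -0.08 (adjusted p = 0.341) in DIDO3ΔCT+HADIDO3. Dhx29, a translation initiation helicase, rose by 0.14 at site 2 in DIDO3ΔE16 (adjusted p = 0.0209) and fell by 0.25 in DIDO3ΔCT+HADIDO3 (adjusted p = 0.00491). Over the list of 5, 1 was higher and 2 were lower in DIDO3ΔE16 (18.4% and 19.1% of all leading sites were), and none was higher and 3 were lower in DIDO3ΔCT+HADIDO3 (19.3% and 23.4%).

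Members outside these lists were called too. Dhx40, a DEAH box protein (chr11:86766849-86770121), had 53.7, 52.7 and 49.6 TPM in WT, 45.9, 52.4 and 54.2 TPM in DIDO3ΔE16, and 32.2, 32.5 and 33.7 TPM in DIDO3ΔCT+HADIDO3. It fell in DIDO3ΔCT+HADIDO3 (log2 fold change -0.77, SE 0.04, adjusted p = 0.000245, limma), where no library overlapped with the other groups, while WT and DIDO3ΔE16 overlapped. With no scaling of the libraries it was at -0.66, under the fold threshold.

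Ddx11, a DNA helicase of sister chromatid cohesion, had 58.9, 54.0 and 51.8 TPM in WT, 71.8, 77.9 and 71.8 TPM in DIDO3ΔE16, and 44.5, 41.2 and 41.9 TPM in DIDO3ΔCT+HADIDO3. The groups did not overlap, and the signs were those of Ddx56 and Dhx8. The log2 fold changes were 0.36 (SE 0.06, adjusted p = 0.007, limma) in DIDO3ΔE16, -0.47 (SE 0.06, adjusted p = 0.00406) in DIDO3ΔCT+HADIDO3 and 0.81 (SE 0.06, adjusted p = 0.000292) between the mutants. Ddx20, a part of the SMN complex that assembles snRNPs, fell in DIDO3ΔCT+HADIDO3 by 0.51 and 0.59 at its 2 sites (adjusted p = 0.00249 and 0.0178). Ddx59 rose there by 0.56 at site 1, from 10.3 ± 0.202 to 16.5 ± 1.29 TPM (adjusted p = 0.00382).

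Some helicase sites varied more within a group than between groups. Ddx3x had 93.6, 759 and 716 TPM in WT, 668, 97.8 and 27.7 TPM in DIDO3ΔE16, and 488, 477 and 23.6 TPM in DIDO3ΔCT+HADIDO3. Low libraries occurred in every group, and no comparison passed (adjusted p = 0.457, 0.613 and 0.838, limma). Ddx55 had 7.40 TPM in WT replicate 2-3 and 9.53 TPM in DIDO3ΔE16 replicate 1 but 123 to 156 TPM in the other libraries, and Dhx32 had 95.6 TPM in WT replicate 4 and 89.6 TPM in DIDO3ΔE16 replicate 1 but 210 to 252 TPM in the others.

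Sites made of several features, or that share bases, held most of this variation. Ddx5, a cofactor of splicing and transcription, had 858 TPM at site 1 in WT replicate 1 and 789 TPM in DIDO3ΔE16 replicate 3 but 0.974 to 2.46 TPM in the other libraries, and site 1 shares bases with site 2. Ddx39b site 3 had 105 TPM in DIDO3ΔE16 replicate 1 and at most 0.425 TPM elsewhere. Among sites that reached 10 TPM, 3 of 44 helicase sites made of 1 feature that shares no base differed over 2-fold between libraries of a group (6.82%, beside 4.18% of all such sites), and 0 over 10-fold (beside 0.386%). Among the other 23, 8 differed over 2-fold (34.8%, beside 48.04% of all such sites) and 7 over 10-fold (30.4%, beside 27.5%).

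**Figure D5:**
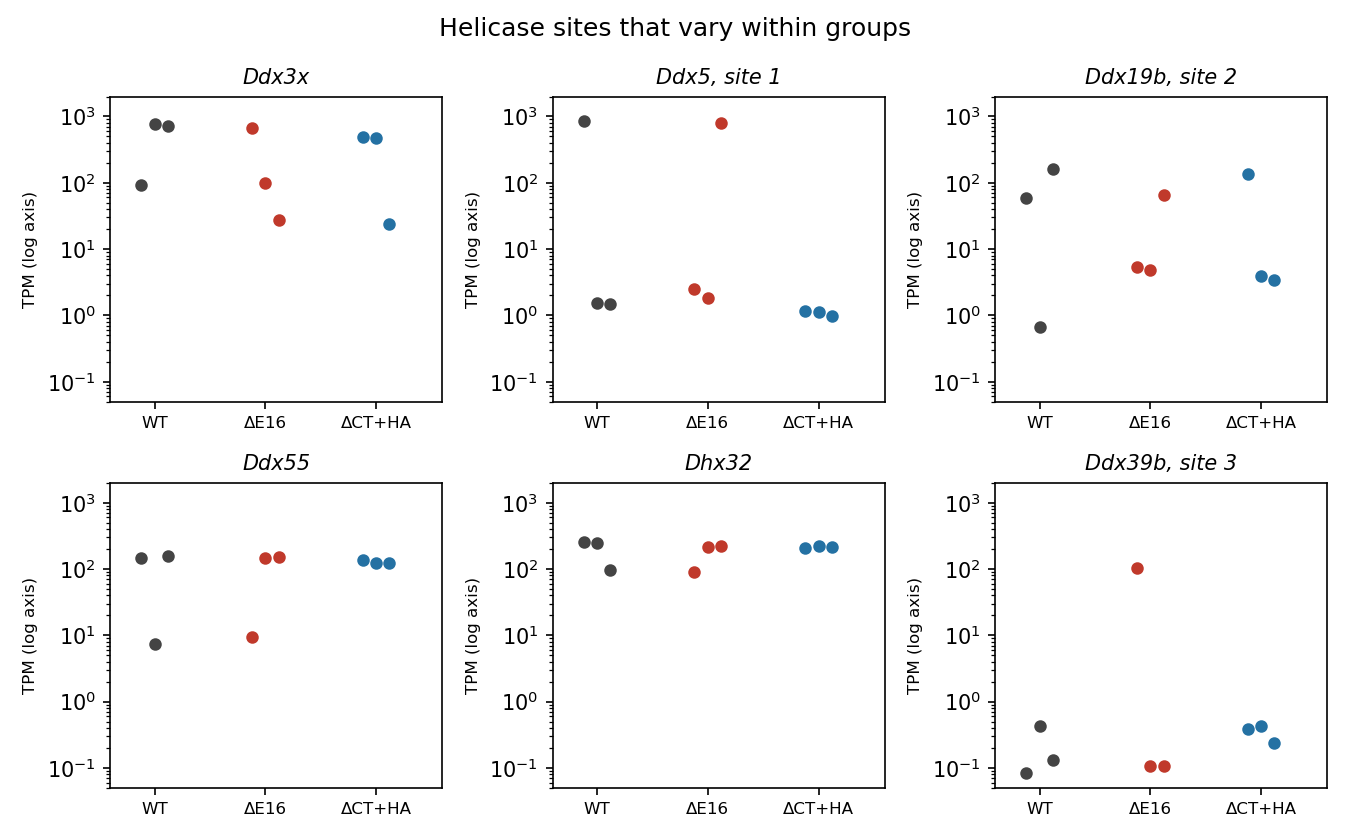
TPM (log axis) of helicase sites with large differences between libraries of 1 group, by library. Ddx3x runs from 23.6 to 759 TPM with a low library in every group, and Ddx5 site 1 stands at 858 and 789 TPM in 2 libraries and at 0.974 to 2.46 TPM in the other 7.

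With the comparison kept within flow cell family C79M, where WT replicate 2-3 is the only WT library, each helicase site called relative to WT kept its sign. These adjusted p-values assume that this 1 WT library varies like the other libraries. Relative to it, Dhx16 was at -1.16 (adjusted p = 0.00845, limma with the family as a covariate) and Ddx24 site 3 at 1.25 (adjusted p = 0.0102) in DIDO3ΔE16. Ddx4 was at -0.75 (adjusted p = 0.0821) and Ddx43 at 0.55 (adjusted p = 0.146), and neither passed. In DIDO3ΔCT+HADIDO3, Ddx39a was at 1.02 (adjusted p = 0.00617), Dhx40 at -0.79 (adjusted p = 0.00418) and the 3 Ddx58 sites at -1.59, -1.49 and -1.92 (adjusted p = 0.0206, 0.0427 and 0.00401). The calls of Ddx49 site 2 (-1.85, adjusted p = 0.158) and Dhx35 site 1 (1.15, adjusted p = 0.0845) were lost. Ddx20 site 2 (-0.83, adjusted p = 0.0121), Ddx25 (0.79, adjusted p = 0.0336) and Ddx55 (3.98, adjusted p = 0.000421, with WT replicate 2-3 at 7.40 TPM) were called in addition, which gave 8 called sites. The median over the 77 helicase sites was -0.03 in DIDO3ΔE16 and -0.27 in DIDO3ΔCT+HADIDO3.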

How the data were processed

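RNA-seq of 9 libraries, 3 per group, was used. The authors aligned reads to mm10 with BWA (0.7.15), removed duplicates and ran StringTie (1.3.3) on UCSC 3′UTRs with 2000 bases added. The authors deposited TPM for each feature in each library, not scaled between libraries, and the other deposited values, mean coverage per feature, served for depth only. The paper describes the sequencing as stranded, and no strand option is named in the file headers. Columns of no sample numbered 0.

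TPM were summed over features with identical coordinates. Between libraries, values were scaled on the mean log2 ratio after 30% was trimmed from either end, and log2(TPM + 0.1) was fitted with limma (3.58.1, R 4.3.3) with trend and robust estimation, moderated 2-sided tests and Benjamini-Hochberg adjustment over all sites above 0 in every library compared. The authors tested TPM with edgeR; TPM are not counts, so limma took its place. Fold changes on this scale understate changes of rare sites. On data simulated for DIDO3ΔE16 against WT (5 sets, 200 of 21063 sites changed), it recovered 42% of 2-fold and 67% of 4-fold changes, with 4.2 false calls per set. In the data themselves 3191 of 21063 sites were called, far more than were changed in a simulated set, so these rates may not hold there. An exact permutation test of 3 against 3 libraries reaches at best p = 0.1. Tables were handled with Python (3.11.15), numpy (2.4.6) and pandas (2.3.3).

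Genes named are Dhx9, Dhx16 and up to 12 called sites in each direction that average 1 TPM or more in 1 of the groups. Also named are the 5 most abundant Ddx and Dhx genes by leading site, and the germline helicases. Genes with a called site among several that share no base, genes without a tested site and examples of the lists were named too. Members and lists were chosen with earlier results of these data known. The lists are from textbook roles. The box was looked for behind the ATP-binding motif in GENCODE M21 coding sequences, since no protein table was used here. Alternatives were pseudocounts of 0.01 and 1, filters, scalings, 1 fit of all 9 libraries, the flow cell family as a covariate, limma without trend, other thresholds (an adjusted p of 0.01, or 1.5-fold), other units, each library left out in turn, and a block for the replicate number. The restriction to sites of 1 feature that share no base, and counts at any fold, were chosen after seeing the data.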

Additional observations from a re-analysis of the deposited data

Results flagged for a closer look

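The effects of the mutations on 5 helicase sites, each relative to WT, had opposite signs in DIDO3ΔE16 and DIDO3ΔCT+HADIDO3 at an adjusted p under 0.05 (limma), and the difference between the mutants was itself called. This was 6.49% of 77 helicase sites, beside 6.48% of all sites. On the log2 scale, DIDO3ΔE16 minus DIDO3ΔCT+HADIDO3 was -1.74 for Dhx16, -0.81 for Ddx17 site 1, 0.97 for Ddx56, 0.89 for Dhx8 and 0.81 for Ddx11. Dhx16 and Ddx17 site 1 were lower in DIDO3ΔE16 and higher in DIDO3ΔCT+HADIDO3 than in WT, and Ddx56, Dhx8 and Ddx11 the reverse, in all 3 libraries of each group. Effects relative to WT share the WT libraries. The difference between the mutants does not use them, but a change in 1 mutant alone can give it. A called difference was also part of the rule that picked these sites, so it is no separate support for opposite signs. Dhx8 and Dhx16 share bases with sites on the other strand. Ddx17 site 1 shares bases with another Ddx17 site on its own strand, and with TPM summed over the gene its difference was -0.23 and was not called. With the flow cell family as a covariate, which leaves 1 WT library in the family of the mutants, the effects in DIDO3ΔE16 relative to WT did not pass for Ddx17 site 1 (adjusted p = 0.0502), Dhx8 (0.0655) and Ddx11 (0.0521).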

How the results depend on the processing

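No called helicase site changed sign under any alternative run. In DIDO3ΔE16, 4 altered helicase sites relative to WT became 2 with the flow cell family as a covariate, 2 at an adjusted p of 0.01, and 2 to 4 without 1 library (2 without WT replicate 1). In 1 fit of all 9 libraries the count in DIDO3ΔE16 was 5. In DIDO3ΔCT+HADIDO3, 7 altered sites became 4 (of 50 genes) with TPM summed over the gene and 5 to 7 without 1 library. Between the mutants, 13 of 77 sites became 8 of 50 genes with TPM summed over the gene. They became 23 sites at a 1.5-fold change and 10 to 14 without 1 library. At any fold, the 32 lower sites in DIDO3ΔCT+HADIDO3 became 21 with the covariate, 21 at an adjusted p of 0.01 and 23 to 31 without 1 library. The 32 of 77 sites higher in DIDO3ΔE16 than in DIDO3ΔCT+HADIDO3 became 21 of 50 genes with summed TPM. They became 21 sites at an adjusted p of 0.01 and 24 to 33 without 1 library. The 11 higher sites in DIDO3ΔE16 relative to WT became 18 with quantile normalization, 4 with the covariate and 8 to 11 without 1 library. The 13 lower sites there became 7 with no scaling, 6 with quantile normalization, 3 with the covariate, 8 in limma without trend or robust estimation, 4 at an adjusted p of 0.01 and 7 to 13 without 1 library (8 without WT replicate 2-3 or DIDO3ΔE16 replicate 1, 7 without DIDO3ΔE16 replicate 2). The causes were not tested.

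The replicate numbers did not pair the libraries: deviations of same-numbered libraries correlated at -0.109 to 0.0354 across sites (7 pairs), and those of other pairs at -0.0726 to 0.131 (20 pairs). With the replicate number as a block, limma called 0 helicase sites, altered or at any fold, in both comparisons with WT, and 0 of all sites. At an unadjusted p under 0.05 and the fold threshold 4 and 9 helicase sites passed, and the smallest adjusted p was 0.0869 and 0.0788. In these comparisons WT replicate 4 and replicate 3 of the mutant had no partner in the block. The block thus left little from which to estimate the spread, and the loss of the calls cannot show that they depend on the replicate number. Between the mutants 11 of the 13 calls were kept with the block, those of Ddx58 site 2 and Ddx49 site 2 were lost and Dhx35 site 1 was added, beside 5183 calls over 21172 sites. With 3 libraries per group, sites that share bases or overlap the other strand, and no read counts, a site that was not called can still differ.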

Other observations

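Helicases outside the Ddx and Dhx names were listed as a backdrop, 23 genes of which 21 were tested. In DIDO3ΔE16 2 were called higher than WT and none lower, and in DIDO3ΔCT+HADIDO3 3 higher and 1 lower, beside 10.2% and 4.94% of all sites in the former and 10.1% and 7.24% in the latter. Mtrex, the helicase of the nuclear exosome, stood at 79.1 ± 1.27 TPM in WT (SD over 3 libraries), at 130.5 ± 3.55 TPM in DIDO3ΔE16 and at 36.6 ± 1.02 TPM in DIDO3ΔCT+HADIDO3. The log2 fold change was 0.66 (adjusted p = 0.000377, limma) in DIDO3ΔE16, under the fold threshold, and -1.21 (adjusted p = 8.72e-05) in DIDO3ΔCT+HADIDO3, and it was 1.85 between the mutants (adjusted p = 1.2e-05).

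Dqx1, a DEAQ box relative of the DEAH proteins, rose in both mutants, from 2.35 ± 0.280 TPM in WT to 18.1 ± 1.25 in DIDO3ΔE16 (log2 fold change 2.84, adjusted p = 0.000179, limma) and 5.98 ± 0.607 in DIDO3ΔCT+HADIDO3 (1.22, adjusted p = 0.00163). Tdrd9, a DExH protein of germline transposon control, was rare and was called higher in both, by 1.68 (adjusted p = 0.0141) and 1.46 (adjusted p = 0.0166), from 0.380 ± 0.168 TPM in WT. Helz2 had -0.59 (adjusted p = 0.0223) in DIDO3ΔE16 and 0.94 (adjusted p = 0.00429) in DIDO3ΔCT+HADIDO3, where it reached 9.47 ± 1.22 TPM. Fancm, a DNA helicase of crosslink repair, was 0.81 higher in DIDO3ΔE16 than in DIDO3ΔCT+HADIDO3 (adjusted p = 0.000204).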
